A study of Mus musculus with 4 samples.

Results

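Autotaxin, the receptors for lysophosphatidic acid (LPA) and the ectonucleotidases were followed by RNA sequencing in MC38, a line from a mouse colon carcinoma. The 9 genes described are Enpp2 (autotaxin), Enpp1, the receptor genes Lpar1, Lpar2, Lpar3, Lpar4 and Lpar6, and the ectonucleotidase genes Nt5e and Entpd1, out of 24346 gene symbols in the deposited tables. They were selected on their FPKM values in the KO and WT libraries and are listed by name, so their values in that comparison are given as a description, without a test. All 9 symbols were found, and 4 of them (Enpp2, Lpar1, Lpar2 and Lpar6) reached the mean of 1 FPKM used as a filter, while 5 did not. FPKM scales the fragments of a gene to transcript length and library size, so levels can be compared between genes.

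Of the 4 libraries, 2 are labelled Arid5a knockout (KO, Arid5a-deficient MC38 cells) and are set against 2 labelled wild type (WT, MC38 cells). All 4 are the same line, and no treatment is named in the labels. Neither the deleted part of Arid5a nor whether the KO line is 1 clone is given in the sources used here. Nothing in the labels says that the 2 libraries of a group came from separate cultures, so errors and p-values measure the spread between these libraries, which may be technical. In bulk RNA, fewer expressing cells and less RNA per cell cannot be told apart.

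The targeted gene itself, Arid5a, measured 2.16 and 1.77 FPKM in the KO libraries, against 0.225 and 0.124 FPKM in the WT libraries, which goes against the labels. KO and WT below therefore stand for the libraries labelled so. Whether the labels of the groups are exchanged was not tested. If they were, every direction given here would turn round. Estimated depth was 9400000 and 10400000 fragments in KO and 14000000 and 10700000 in WT. The 9 colon epithelial markers examined were under 1 FPKM in every library, with Epcam, Cdx1 and Cdx2 at 0, so the epithelial origin named in the labels is not visible in these markers.

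Autotaxin is a secreted lysophospholipase D that turns lysophosphatidylcholine into LPA, a lipid signal for migration, survival and contraction. LPA acts on G protein-coupled receptors of 2 families. Lpar1, Lpar2 and Lpar3 belong with the sphingosine 1-phosphate (S1P) receptors, while Lpar4, Lpar5 and Lpar6 are closer to the purinergic receptors. The ectonucleotidases work on another extracellular signal. Entpd1 (CD39) hydrolyses ATP and ADP to AMP, Nt5e (CD73) turns AMP into adenosine, and adenosine dampens T cells. Enpp1, the closest relative of autotaxin treated here, cleaves ATP to AMP and pyrophosphate and degrades the immune messenger cGAMP.

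Autotaxin mRNA was lower in KO than in WT libraries, with a KO mean of 11.7% of the WT mean. With the labels exchanged, the same values would make the KO mean 8.55-fold that of WT. The 3 detected receptors, Lpar2, Lpar6 and Lpar1, had KO means of 69.3% to 73.5% of their WT means. Transcripts of the ectonucleotidases were at or near 0 in both groups.

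The upstream sequences of Lpar2 and Lpar6, the receptor genes with the highest levels, are shown, and they differ widely in base composition. Whether these sequences bear on the lower values of both receptors in KO was not tested. Each was taken from RefSeq and spans the 250 bases before its annotated start on GRCm38.p6, 5′ to 3′ on the strand of the gene. Capitals mark matches, on either strand, to the E-box CACGTG, the GC box GGGCGG, the TATA box TATAAA or the CCAAT box, whose letters are CCAAT. The Lpar2 sequence is chr8:69822315-69822564 (plus strand), and that of Lpar6 is chr14:73237641-73237890 (plus strand). The RefSeq start of Lpar2 lies 136 bases downstream of its GENCODE M21 start. The last part of its window therefore falls inside the gene as GENCODE places it. That part holds the GC box and the last base of the E-box nearer the start.
Lpar2: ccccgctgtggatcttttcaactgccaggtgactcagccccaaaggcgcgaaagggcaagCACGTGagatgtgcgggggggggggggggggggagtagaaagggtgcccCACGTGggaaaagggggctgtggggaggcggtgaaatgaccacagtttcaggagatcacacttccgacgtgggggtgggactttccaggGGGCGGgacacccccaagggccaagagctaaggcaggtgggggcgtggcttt
Lpar6: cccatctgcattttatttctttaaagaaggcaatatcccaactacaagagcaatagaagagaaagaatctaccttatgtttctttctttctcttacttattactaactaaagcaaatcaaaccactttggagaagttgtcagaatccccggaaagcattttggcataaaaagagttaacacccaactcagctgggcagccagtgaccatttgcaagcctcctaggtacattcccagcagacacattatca

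The Lpar2 sequence had a GC share of 64.4% and held 11 CpG dinucleotides, and that of Lpar6 had a GC share of 39.2% and held 1. Of all promoters in the table, 81.6% had a lower GC share than Lpar2 and 10.3% a lower one than Lpar6. Lpar2 had the E-box at 190 and 141 bases before the start and the GC box at 52, and Lpar6 had none of the 4 motifs. The E-box occurs in 6.02% of 32851 promoter sequences of this length, the GC box in 32.7%, the TATA box in 12.4% and the CCAAT box in 33.8%. A match describes letters only, and its absence says nothing of a factor. Promoters of 8 of the 9 genes were matched by symbol, all but that of Enpp2. The TATA box letters were found in that of Lpar4, at 203 bases before the start, and in none of the other 7.

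Enpp2 maps to the minus strand of chromosome 15 (54838901 to 54952892, GRCm38, GENCODE M21). It measured 3.55 and 3.75 FPKM in KO, against 30.7 and 31.8 FPKM in WT. Both KO libraries lay far below both WT libraries, and within each group the libraries were close. The means were 3.65 ± 0.14 FPKM in KO and 31.2 ± 0.83 FPKM in WT (SD, n = 2 each), so the KO mean was 11.7% of the WT mean. The log2 difference was -2.79 ± 0.055 (SE) on the log2(FPKM + 1) scale and -3.10 for the ratio of mean FPKM. Behind these levels stood an estimated 89 to 103 and 104 to 121 fragments in KO, against 1141 to 1326 and 908 to 1055 in WT. The ranges cover coding transcripts of 2664 to 3095 bases, the lengths used. Of 10827 genes tested, 26 had a lower log2 difference. Autotaxin ranked above 62.6% and 63.0% of all symbols in the KO libraries and above 86.9% and 87.4% in the WT libraries. These shares count the many symbols at 0 as lower. Of 24346 symbols, 14314 and 14446 were above 0 in the KO libraries and 14605 and 14327 in the WT libraries.

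**Figure D1:**
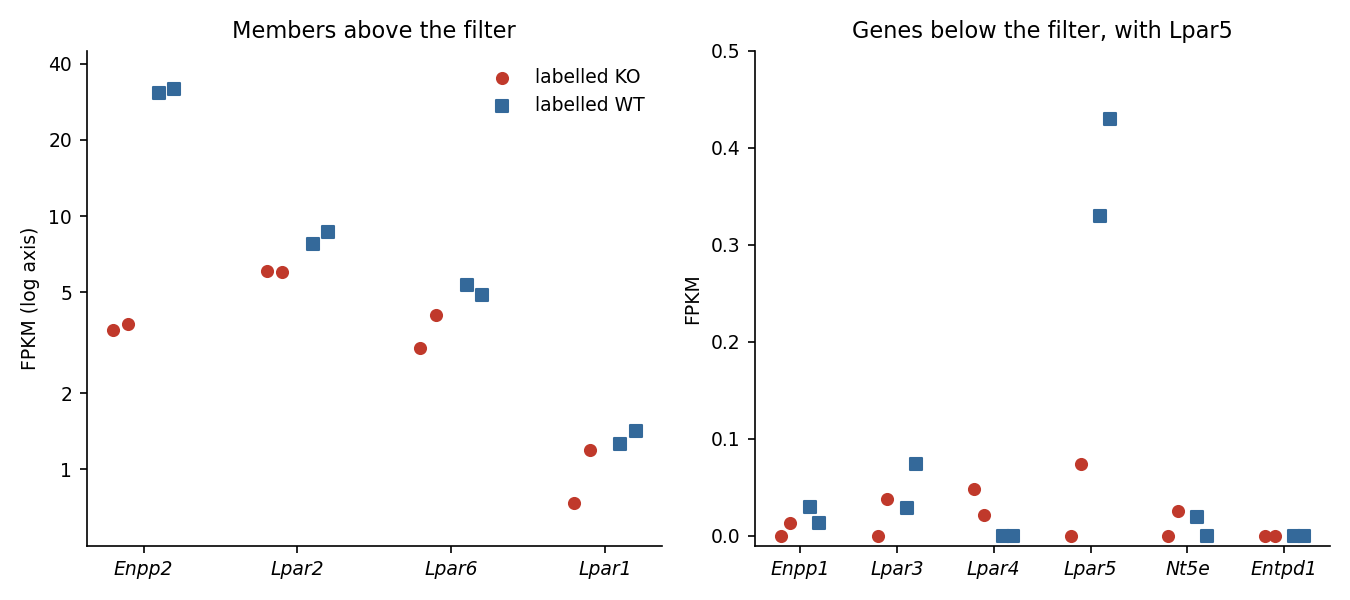
FPKM of each gene in each library, with KO libraries as red circles and WT libraries as blue squares, on a log axis for the 4 genes above the filter (left) and a linear axis for the others and Lpar5 (right). Enpp2 lies at 3.55 and 3.75 FPKM in KO, against 30.7 and 31.8 FPKM in WT, and the genes on the right stay below 0.5 FPKM.

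The genes whose pattern over the 4 libraries was most like that of Enpp2 were sought by the Euclidean distance between log2(FPKM + 1) values centred on each gene. The nearest was Oas2, an antiviral oligoadenylate synthetase, at a distance of 0.166, with 2.23 and 2.85 FPKM in KO and 22.4 and 25.6 FPKM in WT. The monocyte chemokine Ccl8 followed at 0.273, with 4.49 and 4.33 FPKM in KO and 44.9 and 38.7 FPKM in WT. The urea transporter Slc14a1 (0.474), angiotensin-converting enzyme Ace (0.501) and Mndal of the interferon-inducible p200 family (0.594) completed the 5. With 4 libraries in 2 groups, this likeness mostly restates a similar difference between the groups.

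The tested neighbours of Enpp2 differed less, and for those under the filter the size of a difference is not read. Within 1 Mb of its start, 11 other protein-coding genes were listed and 5 were tested, of which 3 fell and 1 rose. Deptor, an inhibitor of mTOR, fell to 11.4 and 10.5 FPKM in KO, against 16.8 and 17.3 FPKM in WT, by 0.60 ± 0.058 (log2, SE; limma, adjusted p = 0.0013). The mitochondrial ribosomal protein gene Mrpl13 changed by -0.28 ± 0.034 (limma, adjusted p = 0.00256) and Dscc1, a cohesion factor, by -0.21 ± 0.065 (limma, adjusted p = 0.0437). Mtbp, a replication factor, rose by 0.23 ± 0.051 (limma, adjusted p = 0.0164). The nearest tested neighbour, Taf2, a subunit of a general transcription factor, was at -0.12 ± 0.042 and was not called (limma, adjusted p = 0.0682). On the whole of chromosome 15, 39.4% of 414 tested genes were called lower and 53 genes higher, with a median of -0.11. Over all genes, 23.3% were called lower and 24.4% higher, and the median was 0.0056. The part of this shift in the value of Enpp2 was not tested. An antisense long non-coding gene, Gm26684, overlaps the first part of Enpp2 and was not analysed here.

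**Figure D2:**
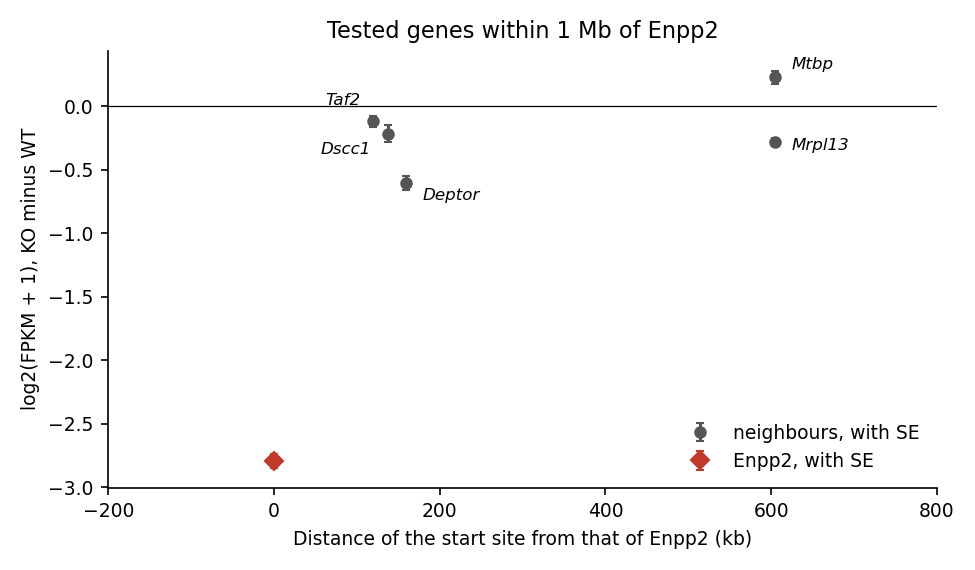
Difference of log2(FPKM + 1), KO minus WT, against the distance of each start site from that of Enpp2 in kilobases, for the 5 tested neighbours (grey circles) and Enpp2 (red diamond), with SE bars. Enpp2 lies at -2.79, and the neighbours lie between -0.60 and 0.23.

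Markers of other cells that express autotaxin or ectonucleotidases were read in the same libraries. Among 8 leukocyte markers, Cd3e, Itgam, Adgre1 and Itgax were at 0 in every library. The summed level of the list was 1.08 and 1.84 FPKM in KO, against 6.20 and 5.91 FPKM in WT, nearly all of it Cd68, a lysosomal protein abundant in macrophages (1.03 and 1.67 FPKM in KO, 6.14 and 5.80 FPKM in WT). The 8 fibroblast and adipocyte markers summed to 11.6 and 12.5 FPKM in KO, against 16.1 and 15.5 FPKM in WT, with the adipocyte hormone Adipoq at 0. Among them the proteoglycan Dcn was at 0.613 and 0.993 FPKM in KO, against 5.13 and 4.53 FPKM in WT. The other 7 summed to 11.0 and 11.5 FPKM in KO, against 10.9 and 11.0 FPKM in WT, so the lower sum of the list came from Dcn. The most abundant of them, Pdgfra, a receptor for platelet-derived growth factor, was at 6.49 and 6.95 FPKM in KO, against 7.06 and 6.47 FPKM in WT. The 5 endothelial markers summed to 0.876 and 0.924 FPKM in KO, against 0.537 and 0.459 FPKM in WT, with Kdr at 0. The part of these markers in the value of Enpp2 was not tested.

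Lpar2 was the most abundant LPA receptor gene in every library. It maps to the plus strand of chromosome 8 (69822429 to 69831102), and its receptor couples to several G proteins and is often raised in tumours. It measured 6.05 and 6.04 FPKM in KO, against 7.77 and 8.68 FPKM in WT. The groups did not overlap, and the gap between them was wider than the spread within either. The KO mean was 73.5% of the WT mean, with a log2 difference of -0.39 ± 0.072 (SE). About 323 to 364 fragments stood behind each KO value and 530 to 629 behind each WT value.

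Lpar6, whose receptor couples mainly to G12 and G13 proteins and is known in humans for its part in hair growth, maps to the plus strand of chromosome 14 (73237895 to 73243294) and consists of 1 exon. It measured 3.01 and 4.07 FPKM in KO, against 5.33 and 4.88 FPKM in WT. The groups did not overlap, but the KO libraries differed from each other by more than the gap between KO replicate 2 and the lower WT library. The KO mean was 69.3% of the WT mean, with a log2 difference of -0.44 ± 0.13 (SE). Without KO replicate 1 the difference was -0.27. Lpar6 sits on the opposite strand inside Rb1, in intron 17 of its 27-exon coding transcript, and overlaps exons of a short non-coding Rb1 transcript. Whether strand was used in counting is not given in the sources used here, so fragments of both genes may not be separated. Rb1, the retinoblastoma tumour suppressor, was at 3.94 and 3.27 FPKM in KO, against 5.69 and 6.07 FPKM in WT, and fell by 0.58 ± 0.096 (log2, SE; limma, adjusted p = 0.00669).

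Lpar1, the receptor best known for driving fibroblast migration and fibrosis, maps to the minus strand of chromosome 4 (58435255 to 58553898). It measured 0.740 and 1.19 FPKM in KO, against 1.26 and 1.42 FPKM in WT. KO replicate 2 lay just below WT replicate 1, and the spread within KO was wider than the gap between the groups. The log2 difference was -0.26 ± 0.15 (SE), and -0.09 without KO replicate 1. About 22 to 25 fragments stood behind KO replicate 1 and 40 to 62 behind the others, so counting error alone (95% Poisson interval) reaches from 36.3% below to 49.4% above the value of KO replicate 1.

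Lpar3 and Lpar4 were close to undetected. Lpar3 was at 0 and 0.0383 FPKM in KO, against 0.0285 and 0.0742 FPKM in WT, values that stand to each other as 0, 1, 1 and 2 fragments. Lpar4 was at 0.0482 and 0.0217 FPKM in KO, as 2 and 1 fragments, and at 0 in both WT libraries. At this depth 3 fragments, the number that a count of 0 allows, correspond to 0.0507 to 0.130 FPKM for these genes, so no difference was detectable for either. Lpar5, which was not among the 9 genes, was at 0 and 0.0739 FPKM in KO, against 0.329 and 0.430 FPKM in WT, as 0, 1, 6 and 6 fragments. It was under the filter, and without a filter its difference was called at -0.41 ± 0.063 (SE; limma, adjusted p = 0.0133).

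The order of the detected levels differed between the groups. In the WT libraries it ran from Enpp2 over Lpar2 and Lpar6 to Lpar1, with no overlap between neighbours. In the KO libraries Lpar2 came first and Lpar1 last, and Enpp2 and Lpar6 overlapped between them. All 6 LPA receptor genes summed to 9.85 and 11.4 FPKM in KO, against 14.7 and 15.5 FPKM in WT. Lpar2 made up 61.4% and 52.8% of that sum in KO and 52.8% and 56.0% in WT. The share of Lpar6 was 30.6% and 35.6% in KO and 36.2% and 31.5% in WT, and that of Lpar1 was 7.51% and 10.4% in KO and 8.55% and 9.19% in WT. The sums did not overlap between the groups, whereas the shares of these 3 receptors did. The share of Lpar5 did not overlap, at 0 and 0.646% in KO and 2.24% and 2.77% in WT. Nor did that of Lpar4, at 0.490% and 0.190% in KO and 0 in both WT libraries. Both rest on the few fragments given above. The ratio of Enpp2 to the summed receptors was 0.361 and 0.328 in KO, against 2.08 and 2.05 in WT.

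**Figure D3:**
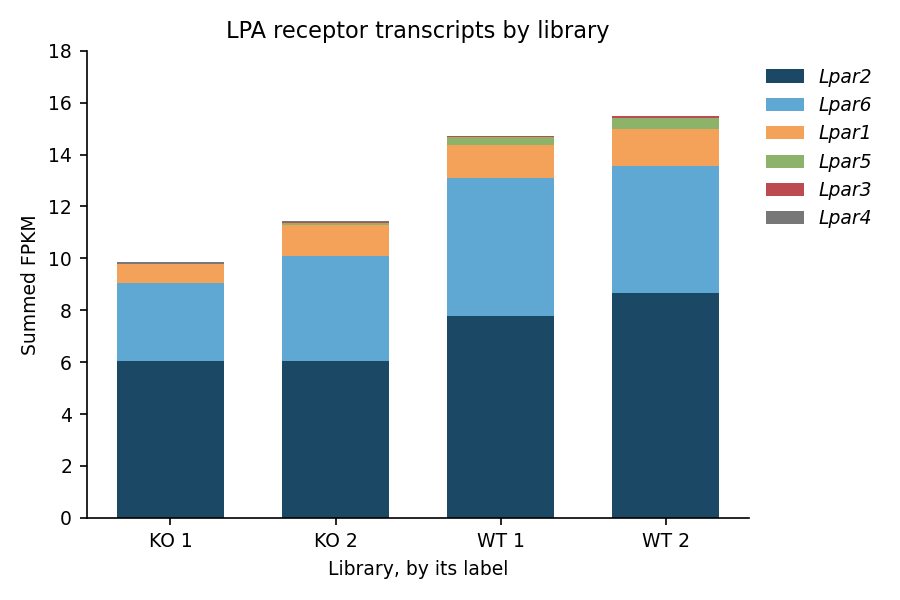
FPKM of the 6 LPA receptor genes stacked by library, KO libraries left and WT libraries right. The bars reach 9.85 and 11.4 FPKM in KO, against 14.7 and 15.5 FPKM in WT, and Lpar2 is the tallest segment in each.

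The 3 enzymes of extracellular nucleotides gave almost no signal. Enpp1, on the minus strand of chromosome 10 (24637914 to 24712159), measured 0 and 0.0133 FPKM in KO, against 0.0297 and 0.0129 FPKM in WT, as 0, 1, 3 and 1 fragments. Nt5e, on the plus strand of chromosome 9 (88327197 to 88372092), measured 0 and 0.0260 FPKM in KO, against 0.0193 and 0 FPKM in WT, with 1 fragment in each library above 0. Entpd1, on the plus strand of chromosome 19 (40612366 to 40741602), was listed at 0 in all 4 libraries. For a coding transcript of 2409 bases, the shortest used, this allows up to 0.133 and 0.120 FPKM in KO. In WT it allows up to 0.0891 and 0.116 FPKM. No difference in the transcripts of CD39 or CD73 was detectable at this depth.

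Of the 4 genes above the filter, 3 (Enpp2, Lpar2 and Lpar6) passed the threshold that 47.6% of all 10827 tested genes passed in either direction, 23.3% of them as lower. In all 4, both KO libraries lay below both WT libraries, as they did for 38.2% of all tested genes. Nothing is read from these counts, since the genes were named with this comparison in view. The number of all genes called was 5159, and 3377 without WT replicate 2.

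**Figure D4:**
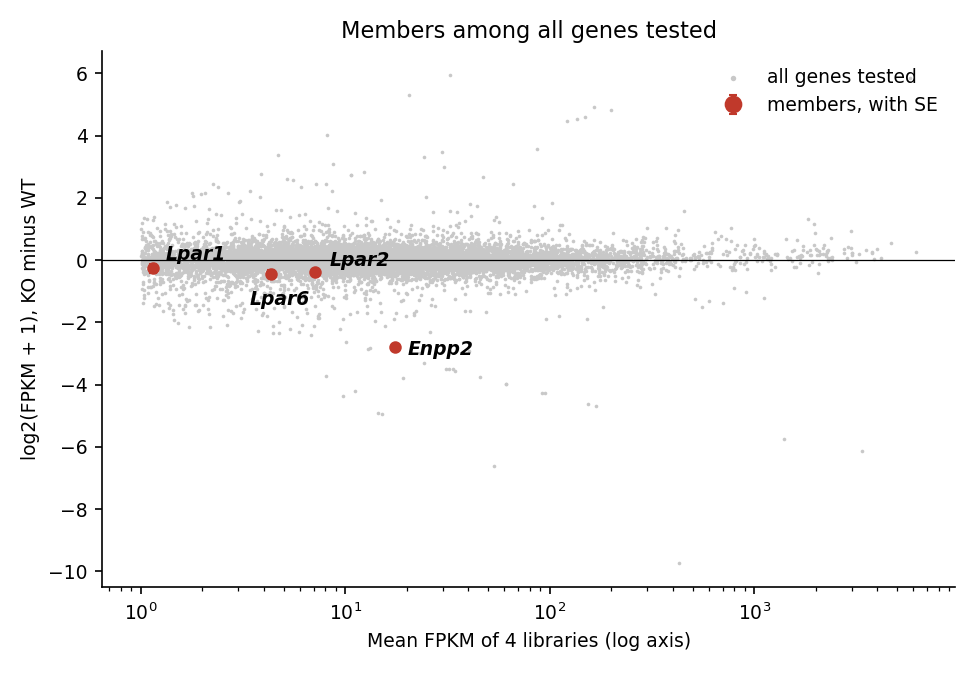
Difference of log2(FPKM + 1), KO minus WT, against mean FPKM on a log axis, for all 10827 tested genes (grey) and the 4 genes above the filter (red, with SE). Enpp2 stands at -2.79 below the band of genes, and Lpar1, Lpar2 and Lpar6 lie between -0.26 and -0.44 at its lower side.

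The other genes of these pathways were examined in 9 lists with 131 listed genes, of which 74 were tested. Of these, 15 (20.3%) rose and 22 (29.7%) fell, against 24.4% and 23.3% over all genes, so the share called was near that of all genes (47.6%). Their median log2 difference was -0.06.

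Among 26 tested genes that make or remove LPA and related lysophospholipids, 3 rose and 9 fell, with a median of -0.09. Pla1a, a secreted phospholipase that makes lysophosphatidylserine, fell most, to 3.91 and 5.45 FPKM in KO, against 10.1 and 10.1 FPKM in WT (-0.98 ± 0.14, SE; limma, adjusted p = 0.00375). Lclat1, an acyltransferase of cardiolipin remodelling, fell by 0.45 ± 0.044 (limma, adjusted p = 0.0014). Agpat6, which makes LPA inside the cell from glycerol 3-phosphate, fell to 36.9 and 37.7 FPKM in KO, against 49.1 and 50.4 FPKM in WT (-0.40 ± 0.036, SE; limma, adjusted p = 0.00103). Also lower were the lysophospholipase D Gdpd1 at -0.42, the phosphodiesterase Gde1 at -0.36, the acyltransferases Agpat4 at -0.34 and Agpat1 at -0.30, and the LPA phosphatases Ppap2c at -0.33 and Ppap2a at -0.14. The call of Ppap2a was lost in 7 of 14 alternatives (limma, adjusted p up to 0.169), that of Agpat4 in 3 (up to 0.102), among them those without KO replicate 2 or WT replicate 2, and that of Agpat1 without KO replicate 1 (limma, adjusted p = 0.0526). The 3 that rose were the acyltransferases Mboat2 (0.50 ± 0.050; limma, adjusted p = 0.00145), Agpat9 (0.42 ± 0.085; limma, adjusted p = 0.0129), which carries out the same step as Agpat6 at a lower level (7.81 FPKM in KO and 5.60 FPKM in WT on average), and Lpcat4 (0.41 ± 0.041; limma, adjusted p = 0.00146). The call of Agpat9 was lost without KO replicate 1 or WT replicate 1 (limma, adjusted p up to 0.0527).

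None of the 5 other ENPP family genes reached the filter, and Enpp4, Enpp6 and Enpp7 were at 0 in every library. Enpp5 was at 0.477 and 0.527 FPKM in KO, against 0.755 and 0.682 FPKM in WT, and Enpp3 stayed below 0.15 FPKM throughout. Of the other lysophospholipid receptors, 2 were tested. The S1P receptor S1pr2 fell to 8.16 and 7.15 FPKM in KO, against 13.1 and 12.4 FPKM in WT (-0.67 ± 0.076, SE; limma, adjusted p = 0.00211), and S1pr1 was not called, at 1.21 and 0.90 FPKM in KO and 1.5 and 1.5 FPKM in WT. Of 5 genes of S1P metabolism, the phosphatase Sgpp1 rose by 0.20 ± 0.047 (limma, adjusted p = 0.0203) and the kinase Sphk2 changed by -0.25 ± 0.076 (limma, adjusted p = 0.043). Sgpp1 was not called in any fit that left out 1 library (limma, adjusted p up to 0.107) and Sphk2 without KO replicate 1, WT replicate 1 or WT replicate 2 and in 2 other alternatives (limma, adjusted p up to 0.139).

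Of 16 tested genes for the G proteins and effectors that LPA receptors use, 7 rose and 2 fell, with a median of 0.13. Rhoa, the small GTPase behind LPA-driven contraction, rose to 212 and 218 FPKM in KO, against 157 and 160 FPKM in WT (0.44 ± 0.029, SE; limma, adjusted p = 0.000462). The G protein subunit genes Gna11 (0.36 ± 0.054; limma, adjusted p = 0.00493) and Gnas (0.26 ± 0.029; limma, adjusted p = 0.00221) rose as well. The other 4 that rose, Rock2, Gnaq, Gna13 and Gnai2, lay between 0.14 and 0.25. The 2 that fell were Gnai3, an inhibitory subunit (-0.28 ± 0.028; limma, adjusted p = 0.00138), and Arhgef1, a guanine nucleotide exchange factor (-0.25 ± 0.058; limma, adjusted p = 0.0193). The calls of Gnaq and Gnai2 were lost in 5 and 4 alternatives, and that of Arhgef1 without WT replicate 2 (limma, adjusted p = 0.0934).

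**Figure D5:**
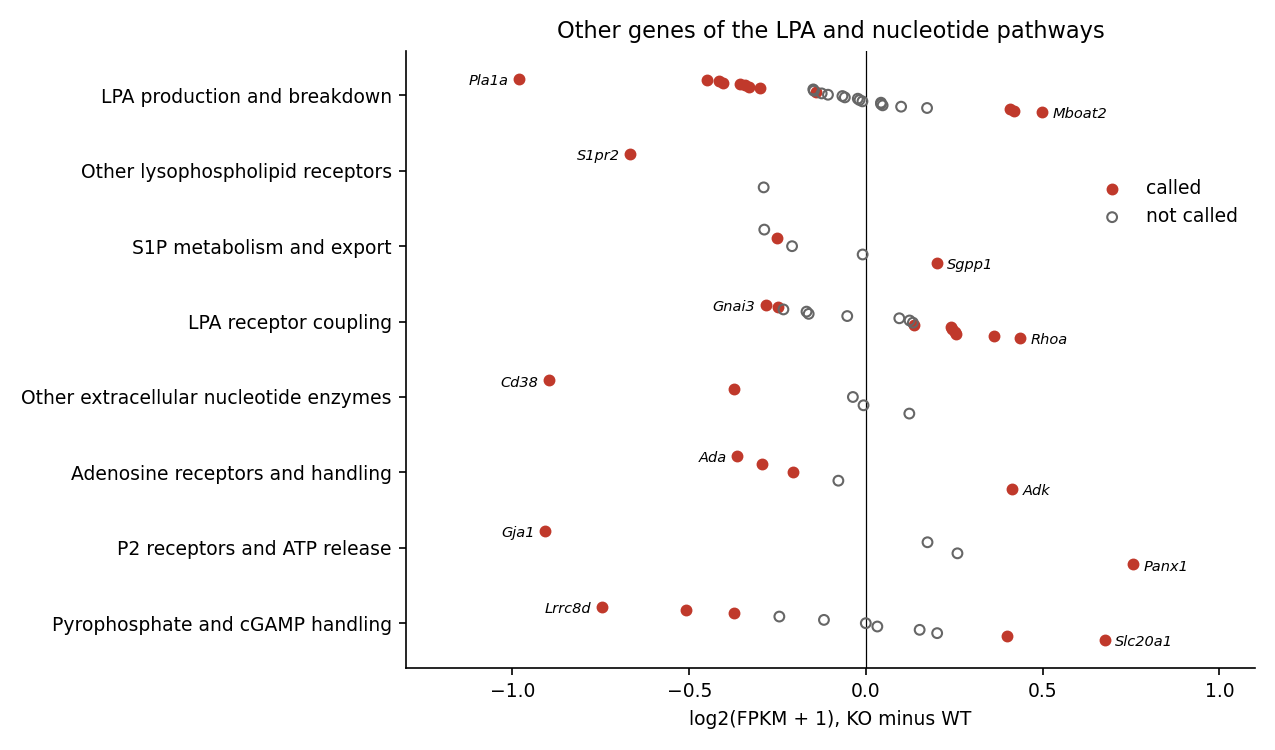
Difference of log2(FPKM + 1), KO minus WT, for each tested gene of 8 lists (the list of other ENPP genes had none), with called genes filled and the others open. Called genes lie on both sides of 0, with Pla1a at -0.98 as the lowest and Panx1 at 0.76 as the highest.

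Genes of nucleotide and adenosine handling changed in both directions. In the list of other nucleotide enzymes, 5 genes were tested (Entpd5, Entpd6, Entpd7, Cd38 and Cant1), of which 0 rose and 2 fell. Not all of these act outside the cell. Entpd2, Entpd3, Entpd4, Entpd8, Alpl, Acpp and Bst1 were under the filter. Cd38, which consumes NAD, fell to 0.802 and 0.879 FPKM in KO, against 2.54 and 2.31 FPKM in WT (-0.90 ± 0.10, SE; limma, adjusted p = 0.00198), and the Golgi nucleotidase Cant1 fell by 0.37 ± 0.058 (limma, adjusted p = 0.00556). All 4 adenosine receptor genes were under the filter. Adenosine kinase, Adk, rose to 41.6 and 41.3 FPKM in KO, against 29.6 and 32.2 FPKM in WT (0.41 ± 0.050; limma, adjusted p = 0.00244). Adenosine deaminase, Ada, fell by 0.36 ± 0.064 (limma, adjusted p = 0.00812), and so did the nucleoside transporters Slc29a1 (-0.21 ± 0.034; limma, adjusted p = 0.00672) and Slc29a2 (-0.29 ± 0.066; limma, adjusted p = 0.017). The call of Slc29a2 was lost without either WT library (limma, adjusted p up to 0.0782).

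Of 4 tested genes of ATP release and P2 receptors, the channel gene Panx1 rose to 6.40 and 7.97 FPKM in KO, against 3.66 and 4.0 FPKM in WT (0.76 ± 0.11, SE; limma, adjusted p = 0.00463). Gja1, connexin 43, fell to 45.2 and 46.1 FPKM in KO, against 86.1 and 87.0 FPKM in WT (-0.91 ± 0.031; limma, adjusted p = 0.000108). P2ry14, a receptor for UDP sugars named here after its values were seen, was listed at 0 in both KO libraries and at 1.80 and 1.83 FPKM in WT, under the filter. Without a filter its difference was called (limma, adjusted p = 0.000935). It was 1 of 7 called in that fit, 5 lower and 2 higher, among the 57 pathway genes under the filter, of which 42 were above 0 in a library. Over all 16191 genes in that fit, 31% were called. That share includes genes above the filter, so it is not a like comparison, and the share among all genes under the filter was not taken.

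Of 11 tested genes that handle pyrophosphate, phosphate or cGAMP, 2 rose and 3 fell. Pyrophosphate is a product of Enpp1 and cGAMP a substrate. The phosphate importers Slc20a1 and Slc20a2 rose by 0.68 ± 0.037 and 0.40 ± 0.050 (limma, adjusted p = 0.000281 and 0.00297). Lrrc8d, a subunit of the volume-regulated anion channel, fell by 0.75 ± 0.055 (limma, adjusted p = 0.000611). Ank, which raises extracellular pyrophosphate, changed by -0.51 ± 0.094 (limma, adjusted p = 0.00949), and was not called without WT replicate 2 (limma, adjusted p = 0.0524). Tmem173, encoding the cGAMP receptor STING, changed by -0.37 ± 0.066 (limma, adjusted p = 0.00822).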

How the data were processed

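The authors deposited 1 table of FPKM values per library, 4 in all. The submitters' processing notes name build mm10, Cufflinks 2.2.1, TopHat2 2.0.13, SAMtools 0.1.19 and Bowtie2 2.2.3. Library preparation used a stranded TruSeq kit for mRNA, per the labels' protocols. Settings, gene annotation and the use of strand are not given in the sources used here. FPKM corrects for length and depth, but abundant transcripts can shift other values.

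No counts were used. Genes averaging 1 FPKM or more were fitted as log2(FPKM + 1) with limma 3.58.1 (lmFit, eBayes with trend) in R 4.3.3, KO minus WT, two-sided, with Benjamini-Hochberg adjustment over all genes and calls under 0.05. This scale understates changes of low genes. The fit was run on simulated data with few changed genes, unlike these data, so no support for the calls is drawn from it. Depth was estimated from low values, of which 94.6% of 1520 genes gave whole multiples within 1%, and from lengths of 114 single-transcript genes in GENCODE M21. Fragment numbers are estimates, and intervals and floors cover counting error only.

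The genes and lists were chosen with earlier results of these data known. Named were the 9 genes, up to 4 called genes per list with the largest change, all of a direction with 5 or fewer, and the 5 nearest to Enpp2. Other genes were chosen after their values were seen. Alternatives were 14. Python 3.11.15 was used for tables and figures.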

Additional observations from a re-analysis of the deposited data

How the results depend on the processing

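All 4 genes above the filter were lower in the libraries labelled KO under each of the 14 alternatives that tested them. In all 4, both KO libraries lay below both WT libraries. Leaving out a library, or changing the pseudocount, filter, moderation or block, could therefore not turn a direction. No support is read from this agreement. The log2 difference of Enpp2 ranged from -3.06 to -2.76, that of Lpar2 from -0.46 to -0.32, that of Lpar6 from -0.61 to -0.27 and that of Lpar1 from -0.47 to -0.09. At a filter of 5 FPKM only 2 of the 4, Enpp2 and Lpar2, were tested, and both were lower. With no filter, Enpp1, Lpar3, Lpar4 and Nt5e were fitted as well, but with at most 3 fragments in a library their directions are not read. With 1 library left out, the number of genes called over the whole table ranged from 3377 to 4109, against 5159, and the number called lower from 1607 to 2082, against 2518. Of the 37 called pathway genes, 26 were called in every alternative that tested them, and 11 were lost in at least 1. None changed sign. KO and WT libraries share replicate numbers, but nothing in the labels says that the numbers mark a shared culture. Deviations of same-numbered libraries from their group means correlated at 0.138 across genes. With a replicate block, 4673 genes, 35 pathway genes and the same direction of the 4 genes were found, and the numbers were not taken as pairing. Depth limits Lpar3, Lpar4, Enpp1, Nt5e and Entpd1, for which at most 3 fragments were found in a library.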
